A study of Mus musculus with 2 samples.

Results

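The genes of the fibroblast growth factor (FGF), insulin-like growth factor (IGF), platelet-derived growth factor (PDGF), vascular endothelial growth factor (VEGF) and hepatocyte growth factor (HGF) systems were examined in a GRO-seq map of gene activity in mouse myoblasts. They were taken by symbol: all genes named Fgf with a number or Fgfr, the binding proteins Igfbp1 to Igfbp7, the Pdgf and Vegf ligands and the Pdgf receptors, and Igf1, Igf1r, Irs1, Irs2, Insr, Hgf, Met, Egfr, Erbb2, Erbb3, Kdr and Flt1. This gave 57 genes with 73 RefSeq entries, of 20128 gene symbols with 24165 entries in the table. Both libraries came from C2C12, an established line of mouse myoblasts that can fuse into muscle fibres, grown without any treatment in medium with 10% serum to 80% confluency on 10 cm plates. There was 1 group only and no control group, the 2 replicate libraries were pooled by the authors, and a cell line in serum is a limited model of muscle in an animal.

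In GRO-seq, engaged RNA polymerases are allowed to run on in isolated nuclei with a labelled nucleotide, and the labelled nascent RNA is sequenced. Gene activity is the number of sense reads from 1 kb past the transcription start to the transcript end, per kilobase of mappable sequence and scaled to the total number of reads (RPKmM). An entry is inactive where its reads did not pass the authors' Poisson test against gene deserts, so an inactive entry is not shown to be without transcription. With a single pooled value per entry there was no standard deviation and no test between samples, so the only error given is that of rounding to 2 decimals, 0.005 RPKmM either way. The number of reads behind an entry is not listed and was not estimated here. Each value is a mean over all cells, so fewer transcribing cells and fewer polymerases per cell cannot be told apart.

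Growth factors of these families are secreted proteins that bind receptor tyrosine kinases on the cell surface. The bound receptors are phosphorylated and recruit docking and adaptor proteins, from which the Ras to ERK and the PI3K to Akt pathways are switched on. In muscle, FGF signals keep myoblasts dividing, IGF signals promote both growth and differentiation, and HGF acting on the receptor Met activates satellite cells, the stem cells of muscle. IGF binding proteins hold IGF in the extracellular space and set how much of it reaches the receptor.

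The myoblast label was checked with markers. All 8 myoblast markers were active, with a median of 6.56 RPKmM and a range from 0.55 for the satellite cell factor Pax7 to 72.45 for the muscle intermediate filament Des. Of the markers of other cells, 1 of 4 endothelial, 1 of 4 blood, 1 of 4 epithelial and 2 of 5 neural genes were active, all between 0.01 and 0.28. The endothelial genes Cdh5, Tie1 and Emcn were inactive, and Pecam1 was listed at 0.01.

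Of the 73 growth factor entries, 57 (78.1%) were active, where 70.2% of all entries of the table were. By gene, 46 of 57 (80.7%) had an active entry, against 68.7% of all symbols, and 11 had none. The median of the active growth factor entries was 0.52 RPKmM, with quartiles of 0.12 and 1.76. For all other active entries it was 0.87, with quartiles of 0.22 and 1.99, which makes the ratio of medians 0.598. Thus the share called active was close to that of the table, while the middle value was lower. The highest entry reached 1 in 18 genes (31.6% of all symbols did so), and it reached 10 in 2 genes, Igfbp5 and Igfbp2, where 1.99% of all symbols and 2.03% of all entries did. At the other end, 14 active entries (24.6%) lay below 0.1, against 18.5% of all active entries.

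**Figure D1:**
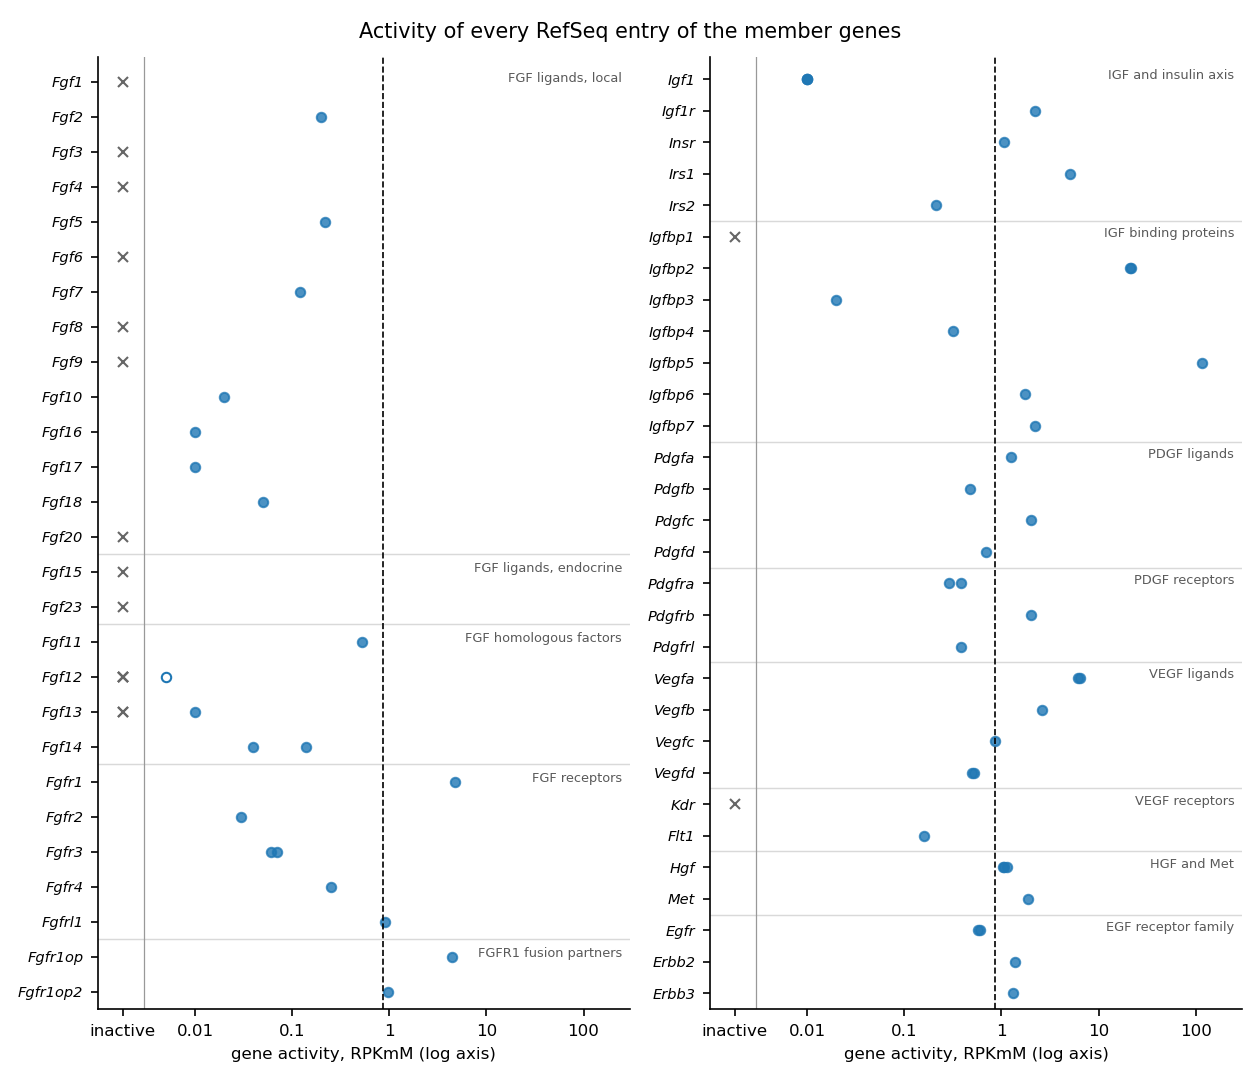
Gene activity in RPKmM (log axis) of every RefSeq entry of the 57 genes, in 13 groups by role. Each filled point is an active entry and each cross an inactive entry, the open circle is the Fgf12 entry listed at 0, drawn at 0.005, and the dashed line is the median of all active entries of the table, 0.87. The 7 active secreted FGF ligands lie left of the line, whereas Igfbp5 at 116.57 and Igfbp2 at 21.77 lie furthest right.

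The secreted FGF ligands were low or inactive. Of 16 genes, 7 (43.8%) were active, where 68.7% of all symbols were, with a median of 0.05 RPKmM and a highest value of 0.22. Fgf5, an FGF that ends the growth phase of hair, was listed at 0.22. Fgf2, a broad mitogen of mesenchymal cells including myoblasts, was listed at 0.20, and Fgf7, made by mesenchyme to act on epithelium, at 0.12. These 3 genes were the secreted FGF ligands at or above 0.1. The listed value of Fgf5 was 1.10-fold that of Fgf2, with a range of 1.05 to 1.15 from rounding alone. Counting error and the spread between libraries are not in this range, so their order is not settled. Below them, Fgf18, known from cartilage and bone, was at 0.05 and Fgf10, needed for limb and lung outgrowth, at 0.02. Fgf16 and Fgf17 were both at 0.01, among the lowest values that the table can show. Inactive were Fgf1, Fgf3, Fgf4, Fgf6, Fgf8, Fgf9 and Fgf20, together with the endocrine factors Fgf15 and Fgf23. Fgf6 is known as an FGF of skeletal muscle, and Fgf4 and Fgf8 as signals of the early embryo and the limb bud. Fgf21 and Fgf22 were not analysed here.

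The FGF homologous factors Fgf11 to Fgf14 are not secreted and bind voltage-gated sodium channels inside the cell. Fgf11 was the most active of them at 0.52 RPKmM. The entries of the other three genes were low or inactive. For Fgf14, entry NM_010201 was at 0.14 and NM_207667 at 0.04, a ratio of 3.5 (3 to 4.14 from rounding). Only 1 of 3 entries of Fgf13 was active, at 0.01, and only 1 of 4 entries of Fgf12, which was listed at 0 and so lay below 0.005. They were the only 2 genes of the set with both active and inactive entries.

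Among the FGF receptors the activity was concentrated in a single gene. Fgfr1, the main FGF receptor of mesenchymal cells, had an activity of 4.72 RPKmM, above 91.8% of all active entries. Fgfrl1, a receptor-like protein without the kinase domain, followed at 0.91, close to the median of all active entries. The remaining kinase receptors were lower, with Fgfr4 at 0.25, Fgfr3 at 0.06 and 0.07 in its pair of entries, and Fgfr2 at 0.03. Fgfr1 was thus 5.19-fold above Fgfrl1, 18.9-fold (18.5 to 19.3 from rounding) above Fgfr4, 67.4-fold (62.9 to 72.7) above Fgfr3 and 157-fold (135 to 189) above Fgfr2. It was also 21.5-fold above Fgf5, the highest secreted FGF. The neighbouring values Fgfr4, Fgfr3 and Fgfr2 were apart by more than rounding, whereas both entries of Fgfr3 were not. Fgfr1op, a centrosomal protein, was at 4.38 and Fgfr1op2 at 0.97; both are matched through their symbols, given because their human counterparts were found fused to FGFR1, and they are no receptors.

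In the IGF system Igf1 was barely active, while Igf1r, Insr and Irs1 were above the median of the table. The 3 entries of Igf1, the growth factor that drives muscle growth after birth, were all at 0.01 RPKmM. Its receptor Igf1r was at 2.23, above 78.0% of active entries, and the insulin receptor Insr at 1.07, so that Igf1r was 2.08-fold above Insr. Igf1r stood 223-fold above Igf1, although rounding of 0.01 alone lets this ratio range from 148 to 447. The docking proteins that carry the signal of both receptors differed strongly. Irs1 was at 5.06, above 92.5% of active entries, and Irs2 at 0.21, a ratio of 24.1 (23.5 to 24.7). Igf2, the growth factor of the fetus and of differentiating muscle, which the rule did not take, had 4 entries between 0.34 and 0.88, 88-fold above Igf1 at its highest (58.3 to 177).

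The IGF binding proteins spanned the widest range of any group, from inactive to 116.57 RPKmM. Igfbp5, the binding protein known to be induced in myoblasts as they differentiate, was at 116.57 (NM_010518), and 18 active entries of the table were higher. Its activity was 1.61-fold that of Des. Igfbp2 followed at 21.77 and 21.07 in its pair of entries, above 98.9% of active entries, so that Igfbp5 was 5.35-fold higher. Igfbp7, which binds IGF weakly, was at 2.20, and Igfbp6, which prefers IGF-2, at 1.76. Igfbp4, an inhibitor of IGF that proteases release, was at 0.32. Igfbp3, the main IGF carrier of blood serum, was at 0.02, and Igfbp1, a liver protein regulated by insulin, was inactive. In order of activity, each neighbouring pair differed by more than rounding, the closest being Igfbp7 and Igfbp6 with a ratio of 1.25.

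Of the 7 binding protein genes, 4 form a couple of neighbouring pairs in the genome, and these pairs stood far apart in activity. Igfbp2 (chr1:72871077-72899048, plus strand, mm9) and Igfbp5 (chr1:72904506-72921458, minus strand) point towards each other with 5.457 kb between their ends. Igfbp1 (chr11:7097785-7102549, plus strand) and Igfbp3 (chr11:7106089-7113926, minus strand) have the same arrangement with 3.539 kb between them. The former pair held both genes above 10, and the latter pair the lowest active gene and the inactive gene of the family. Reads were counted on the sense strand, so that the genes of a converging pair are counted separately.

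**Figure D2:**
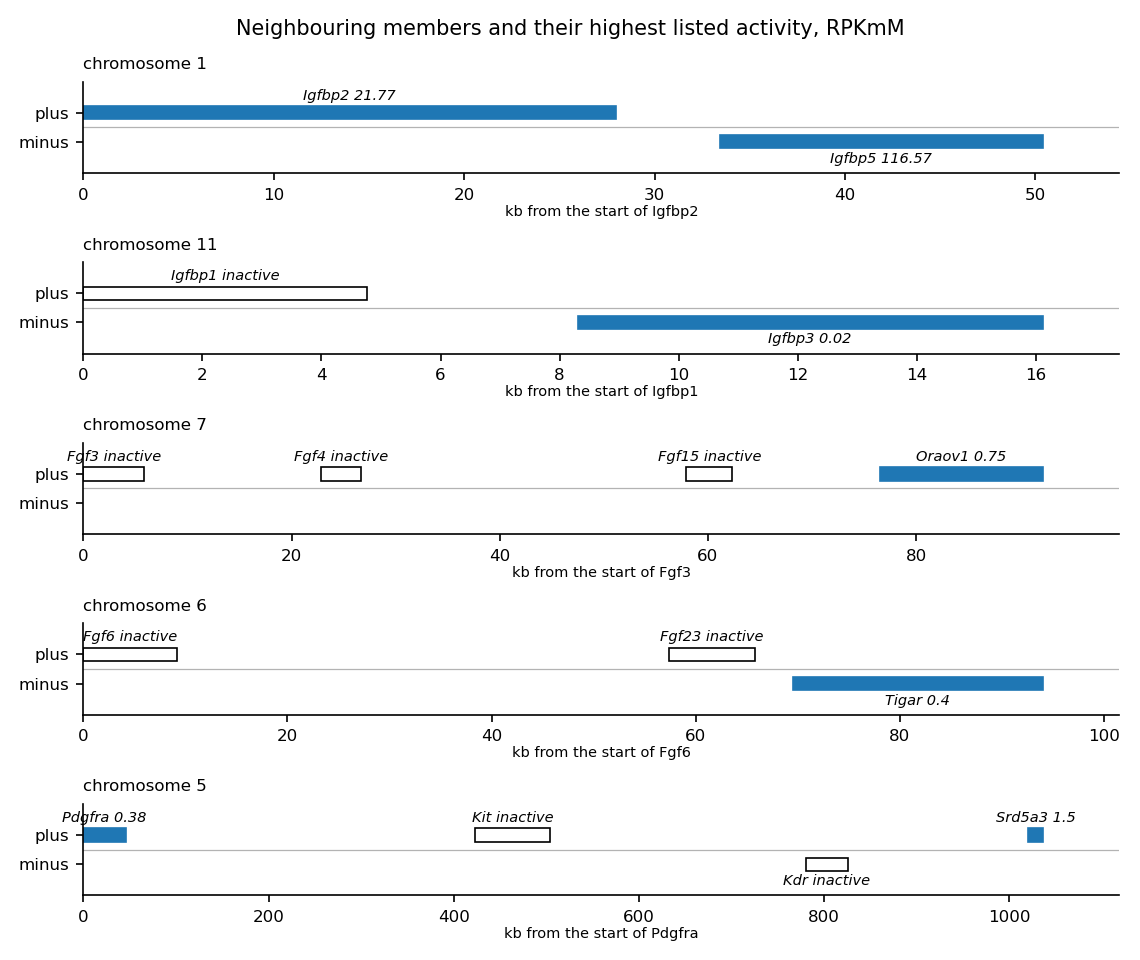
Genes of 5 loci with neighbouring members, drawn to scale in kb from the start of the first gene, plus strand above and minus strand below. Filled boxes are active genes with their highest activity in RPKmM and open boxes are inactive genes, so that Igfbp2 and Igfbp5 are filled and the Fgf3, Fgf4 and Fgf15 cluster is open.

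The 250 bases before the transcription start of these 4 genes are shown to compare the CpG content of the pairs, with each CG in capitals. They come from RefSeq, build GRCm38.p6, and lie before the region in which activity was counted. The sequences are Igfbp5 at chr1:72874866-72875115 on the minus strand, Igfbp2 (the more upstream of 2 listed starts) at chr1:72824230-72824479 on the plus strand, Igfbp3 at chr11:7213924-7214173 on the minus strand and Igfbp1 at chr11:7197537-7197786 on the plus strand.
Igfbp5: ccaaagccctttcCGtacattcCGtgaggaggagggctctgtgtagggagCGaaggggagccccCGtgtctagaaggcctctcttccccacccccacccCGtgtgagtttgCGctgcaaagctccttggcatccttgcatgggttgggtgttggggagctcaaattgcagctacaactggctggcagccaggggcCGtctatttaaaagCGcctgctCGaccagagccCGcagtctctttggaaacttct
Igfbp2: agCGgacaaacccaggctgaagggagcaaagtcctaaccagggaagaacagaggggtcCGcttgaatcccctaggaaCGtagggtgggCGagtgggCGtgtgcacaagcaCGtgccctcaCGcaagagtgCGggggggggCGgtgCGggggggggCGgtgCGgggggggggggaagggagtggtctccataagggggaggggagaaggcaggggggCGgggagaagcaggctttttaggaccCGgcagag
Igfbp3: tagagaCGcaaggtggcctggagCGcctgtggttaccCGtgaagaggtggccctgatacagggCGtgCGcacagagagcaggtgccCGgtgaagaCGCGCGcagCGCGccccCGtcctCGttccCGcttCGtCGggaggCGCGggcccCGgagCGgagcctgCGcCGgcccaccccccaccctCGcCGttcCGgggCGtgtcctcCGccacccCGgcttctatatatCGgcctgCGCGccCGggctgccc
Igfbp1: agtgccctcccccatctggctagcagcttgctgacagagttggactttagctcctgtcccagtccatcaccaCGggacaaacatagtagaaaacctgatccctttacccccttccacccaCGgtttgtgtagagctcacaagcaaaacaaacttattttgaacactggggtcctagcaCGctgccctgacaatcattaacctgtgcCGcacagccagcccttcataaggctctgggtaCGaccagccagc
Igfbp3, with the lowest listed activity, held the most CG dinucleotides at 32, against 14 in Igfbp2, 10 in Igfbp5 and 5 in Igfbp1. Over 32851 RefSeq promoters the median of this window was 6, with quartiles of 2 and 16. The order of CG content was therefore not the order of activity among these genes.

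Short motifs were searched in these windows on both strands. The E-box CANNTG, the general site of MyoD and related factors, occurred once in each of these 4 windows, and 66.2% of all promoters hold it. The GC box core GGGCGG, found in 32.7% of all promoters, occurred 3 times in the printed window of Igfbp2 and in none of the others. The window before the other listed start of Igfbp2 held no match of it. Neither CAGCTG, an E-box that is also a match of CANNTG and is found in 13.0% of promoters, nor TATAAA, found in 12.4%, occurred in these windows. A match is a string of letters and was not tested for binding.

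All 4 PDGF ligands were active. Pdgfc was the highest at 2.04 RPKmM, above 75.6% of active entries, followed by Pdgfa at 1.27, Pdgfd at 0.70 and Pdgfb at 0.48. Pdgfc was 1.61-fold above Pdgfa and 4.25-fold above Pdgfb. Pdgfa and Pdgfc are ligands of the alpha receptor, while Pdgfb binds both receptors and Pdgfd mainly the beta receptor. Of the receptors, Pdgfrb was at 2.00 and Pdgfra at 0.29 and 0.38. The beta receptor, known from pericytes and smooth muscle, was thus 5.26-fold above the alpha receptor, known from fibroblasts and fibro-adipogenic progenitors of muscle. Pdgfrl, a receptor-like protein, was at 0.38.

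Of the VEGF system the ligands were active and the receptors were low. Vegfa, the main angiogenic factor, was at 6.39 and 6.21 RPKmM in its pair of entries, the highest of all secreted growth factors in the set and above 94.7% of active entries. It was 2.46-fold above Vegfb at 2.60, 7.43-fold above the lymphatic factor Vegfc at 0.86 and 12.3-fold above Vegfd at 0.52. The signalling receptor Kdr was inactive and Flt1, a high-affinity receptor that also acts as a decoy, was at 0.16. Both receptors are endothelial genes, and the endothelial markers named above were inactive or at 0.01.

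Hgf was active in all 3 entries at 1.14, 1.06 and 1.05 RPKmM, and its receptor Met was at 1.86, above 72.9% of active entries. Met was 1.63-fold above Hgf, and both lay above the median of all active entries. Hgf was 114-fold (75.7 to 229 from rounding) above Igf1, another factor that acts on satellite cells. Of the EGF receptor family, Erbb2, which has no known ligand of its own, was at 1.39, Erbb3, which lacks full kinase activity, at 1.32 and Egfr at 0.57 and 0.60. Erbb2 was 2.32-fold above Egfr and 1.05-fold above Erbb3.

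**Figure D3:**
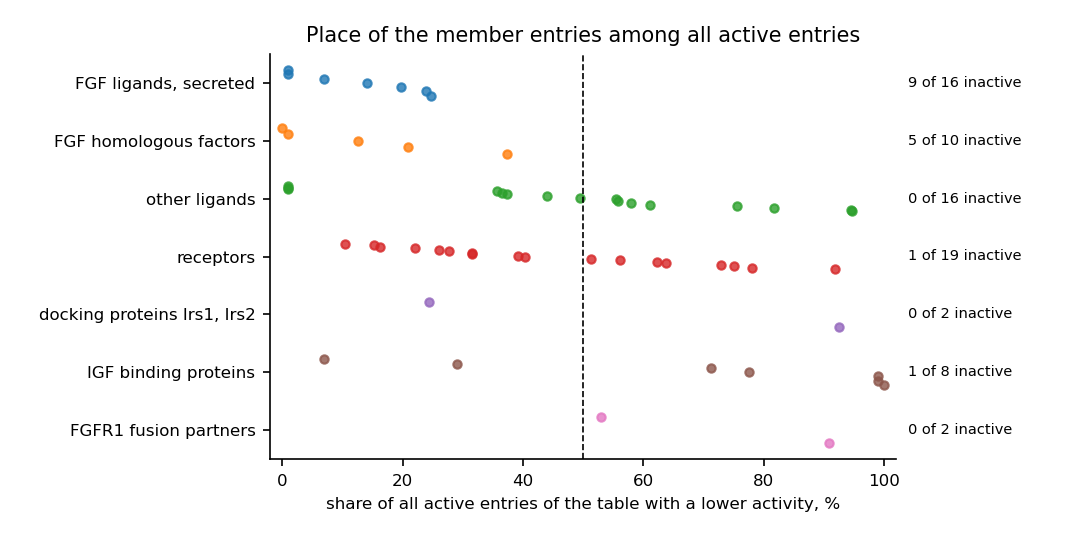
Each point is an active entry of the set, placed by the share of all active entries of the table with a lower activity in percent, in 7 groups, with the number of inactive entries at the right. The dashed line marks the middle of the table, and secreted FGF ligands lie left of it, whereas Irs1, Fgfr1, Vegfa, Igfbp2 and Igfbp5 lie near the right end, Irs1 at 92.5% and Igfbp5 at 99.9%.

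Of 32 ligand entries 23 (71.9%) were active, and of 19 receptor entries 18 (94.7%), where 70.2% of all entries were active. Kdr was the inactive receptor, and the 9 inactive ligand entries were FGFs. Among the other ligands all 10 genes were active, with a median of 1.00 RPKmM over genes. The median was 0.585 for active receptor entries and 0.50 for active ligand entries, a ratio of 1.17. This order did not hold for entries of at least 0.1, where the ratio was 0.953, a limit that keeps 3 of the 7 active secreted FGF genes, while it rose to 1.90 with a single entry per gene and to 6.71 with inactive entries counted as 0. As geometric means the ratio was 1.79 or 2.00, depending on the pseudocount (0.01 or 0.001). For receptor genes the range was 0.03 to 4.72, and for ligand genes 0.01 to 6.39, so the classes overlapped over nearly their whole range.

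Most genes with several active entries had close values among them. Of the 57 genes 11 had several entries, 27 in all. Entries of Igfbp2 and Vegfa differed by 1.03-fold, of Vegfd by 1.04-fold, of Egfr by 1.05-fold, of Hgf by 1.09-fold and of Pdgfra by 1.31-fold, each more than rounding allows. Fgf14 stood out with its ratio of 3.5. The overlap of entries was not measured here, and entries of a gene are not replicates, since transcripts of a gene can share reads.

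The inactive FGF genes were partly clustered. Fgf3 (chr7:152023988-152030341, mm9), Fgf4 (chr7:152047291-152051148) and the endocrine Fgf15 (chr7:152082437-152086858) follow each other on the plus strand with 16.949 and 31.288 kb between them, and all were inactive. The next gene, Oraov1, lies 14.146 kb further on and was at 0.75 RPKmM. Fgf6 (chr6:126965560-126974736) and Fgf23 (chr6:127022920-127031426), 48.183 kb apart, were also both inactive, next to Tigar at 0.40, only 3.707 kb away on the opposite strand. On chromosome 5, Pdgfra at 0.38 was followed by the receptor genes Kit and Kdr, both inactive, and then by Srd5a3 at 1.5. Of the 11 inactive genes, 2 (18.2%) had active genes on both sides, against 33.7% of all inactive genes of the table, and 1 (9.09%) had none, against 28.5%. The remaining 8 had an active gene on 1 side. Genes of the set count as neighbours of each other here, so Fgf3, Fgf4, Fgf15, Fgf6 and Fgf23 each had an inactive gene of their own cluster beside them. Of the active growth factor genes, 29 of 43 (67.4%) had active genes on both sides, against 64.1% of all active genes.

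Promoter sequence of the FGF cluster is shown because these inactive neighbours differed in CG content close to the start. The 250 bases before the start, from RefSeq in build GRCm38.p6 with CG in capitals, are at chr7:144861136-144861385 for Fgf4 and chr7:144838362-144838611 for Fgf3, both on the plus strand.
Fgf4: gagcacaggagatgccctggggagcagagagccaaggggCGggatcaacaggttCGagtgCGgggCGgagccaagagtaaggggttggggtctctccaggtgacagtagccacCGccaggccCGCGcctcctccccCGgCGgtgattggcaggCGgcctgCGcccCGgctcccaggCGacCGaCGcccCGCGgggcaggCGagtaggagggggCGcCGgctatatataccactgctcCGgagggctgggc
Fgf3: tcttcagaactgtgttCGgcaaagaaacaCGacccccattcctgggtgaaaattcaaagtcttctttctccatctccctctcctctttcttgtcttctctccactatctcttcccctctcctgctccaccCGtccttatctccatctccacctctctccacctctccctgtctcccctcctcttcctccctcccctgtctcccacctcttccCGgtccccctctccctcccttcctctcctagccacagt
Fgf4 held 21 CG dinucleotides, 2 matches of GGGCGG and 1 of CANNTG, whereas Fgf3 held 4 CG dinucleotides and none of these motifs. The order turned in the wider window of 1 kb either side of the start in mm9, which held 154 CG dinucleotides in Fgf3 and 122 in Fgf4. Both genes were inactive.

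The gene before a start on the same strand was examined because nascent transcription is counted by strand. Of 56 placed genes, 8 had such a neighbour ending within 10 kb of their start. Vegfd, which starts 0.366 kb after the end of Pir, was at 0.52 and 0.50 RPKmM, while Pir was at 0.50, a ratio of 1.04 (1.02 to 1.06 from rounding). Pdgfrl, 3.924 kb after Slc7a2, was at 0.38 and Slc7a2 at 0.36, a ratio of 1.06 (1.03 to 1.08). In both pairs the values were close, and whether reads of the preceding gene contributed was not tested. Fgf18 at 0.05 lies 4.886 kb after Npm1, which was at 17.19. Fgf8 was inactive 7.345 kb after Mgea5 at 5.53, and Vegfb at 2.60 lies 0.259 kb after Dnajc4 at 0.35. Fgf18, Fgf8 and Vegfb were thus listed unlike their preceding genes, and whether reads of those genes contributed was not tested here either. Fgf17 at 0.01 follows Npm2 at 0.20, Fgfrl1 at 0.91 follows Idua at 0.19, and Fgf11 follows Tmem102, which was inactive.

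Active growth factor genes were longer than inactive ones. The longest annotated transcript had a median of 31.3 kb in 45 active genes and 8.51 kb in 11 inactive genes, a ratio of 3.68. Over all genes of the table the medians were 23.2 kb for active and 14.2 kb for inactive genes. Inactive genes ranged from 3.858 kb in Fgf4 to 80.1 kb in Fgf1. Since an active call rests on a number of reads, and a long gene collects more of them at the same density, the share of length in the call cannot be told apart from activity here. Fgfr2 was left out, because its annotated model spans 29 other genes of the table.

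CpG content around the start had close medians in active and inactive growth factor genes, but the lower quartile was lower in the inactive genes. The ratio of observed to expected CG within 1 kb either side of the start had a median of 0.605 in 45 active genes and 0.594 in 11 inactive genes. The quartiles were 0.515 and 0.722 in active genes and 0.300 and 0.658 in inactive genes. In the whole table these medians were 0.599 and 0.245. The comparison had been planned over RefSeq promoters, with this window as its alternative, but over promoters it was void, as 44 of the 57 genes (77.2%) had a promoter sequence, below the 80% required. A ratio of at least 0.6 was found in 25 active genes (55.6%) and 4 inactive genes (36.4%), compared with 49.9% of active and 12.3% of inactive genes of the table. Fgf3 (0.781), Fgf20 (0.731), Fgf15 (0.665) and Fgf8 (0.651) were the inactive genes above that value, while Fgf23 (0.136), Fgf1 (0.234), Fgf6 (0.285) and Igfbp1 (0.315) were the lowest. Among active genes, Irs2 had the highest ratio at 1.01 with an activity of 0.21. Igfbp3 had 0.859 with an activity of 0.02, whereas the most active gene Igfbp5 had 0.476, and Hgf and Vegfd, both at or above 0.5 in activity, had 0.240 and 0.143.

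**Figure D4:**
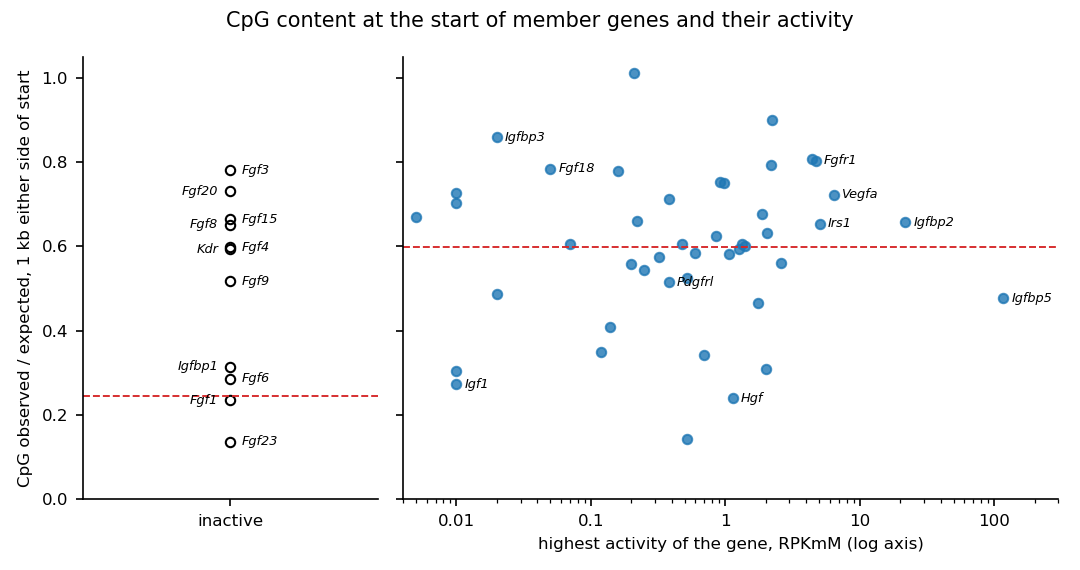
Ratio of observed to expected CG within 1 kb either side of the start, against the highest activity of the gene in RPKmM (log axis), with inactive genes as open circles on the left and some genes named. Fgf12, listed at 0, is drawn at 0.005, and the dashed lines are the medians of all inactive (0.245) and all active (0.599) genes of the table, so that most inactive growth factor genes lie above the line of their class.

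Other genes of the pathways, taken from lists of their known members, were described beside these. Their counts stand beside the 68.7% of all symbols with an active entry. All 21 genes of the adaptors and the Ras to ERK cascade were active, with a median of 2.06 RPKmM, and 17 were at or above 1. The highest were the kinase Araf at 12.91 and 4.86 in its pair of entries, the GTPase Nras at 11.43 and the Ras GTPase activator Rasa1 at 4.70. All 20 genes of the PI3K, Akt and mTOR branch were active as well, with a median of 1.36, led by the PI3K subunit Pik3r1 at 3.58, the mTOR activator Rheb at 3.08 and the kinase Gsk3b at 2.83. In both branches the median exceeded the 0.87 of all active entries.

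Inhibitors that act as feedback on these pathways were active in 15 of 15 genes, with a median of 1.78 RPKmM. Spry2, a Sprouty inhibitor of FGF signalling, was at 21.79, the ERK phosphatase Dusp6 at 12.92 and Errfi1, an inhibitor of EGF receptors, at 8.17. The adaptors Grb10 and Grb14, which dampen insulin and IGF receptors, were at the other end, with both entries of Grb10 listed at 0 and Grb14 at 0.02. Thus the lowest feedback genes of this list were those of the insulin and IGF receptors.

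Coreceptors and enzymes of heparan sulphate, which FGF and HGF need for binding, were active in 12 of 18 genes (66.7%), a share near the 68.7% of all symbols, with a median of 2.30 RPKmM over the active ones. Ext1, which builds the sugar chain, was at 16.37, the proteoglycan Gpc1 at 9.96 and the sulphotransferase Hs2st1 at 4.19. Inactive were Gpc2, Gpc3, Gpc4 and Gpc5 and the klothos Kl and Klb, the coreceptors of the endocrine FGFs. Both endocrine FGF genes of the set were inactive too.

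Of 14 genes that process or release these ligands 10 (71.4%) were active, also near the 68.7% of all symbols, with Plau, the protease urokinase that can activate HGF, at 15.27 RPKmM, the convertase Furin at 7.24 and 6.39 and the protease Htra1, which cleaves IGF binding proteins, at 1.86. Pappa2, Igfals, St14 and Spint2 were inactive. Of 16 related ligands outside the rule 12 (75%) were active, with a median of 0.41, and Pgf (1.53 and 1.54), Angpt1 (1.03) and Areg (0.95) were the highest. Nrg2, Nrg3, Nrg4 and Mst1 were inactive. Of 7 related receptors 2 (28.6%) were active, Igf2r at 0.91 and Tek at 0.01, while Insrr, Erbb4, Flt4, Mst1r and Kit were inactive.

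**Figure D5:**
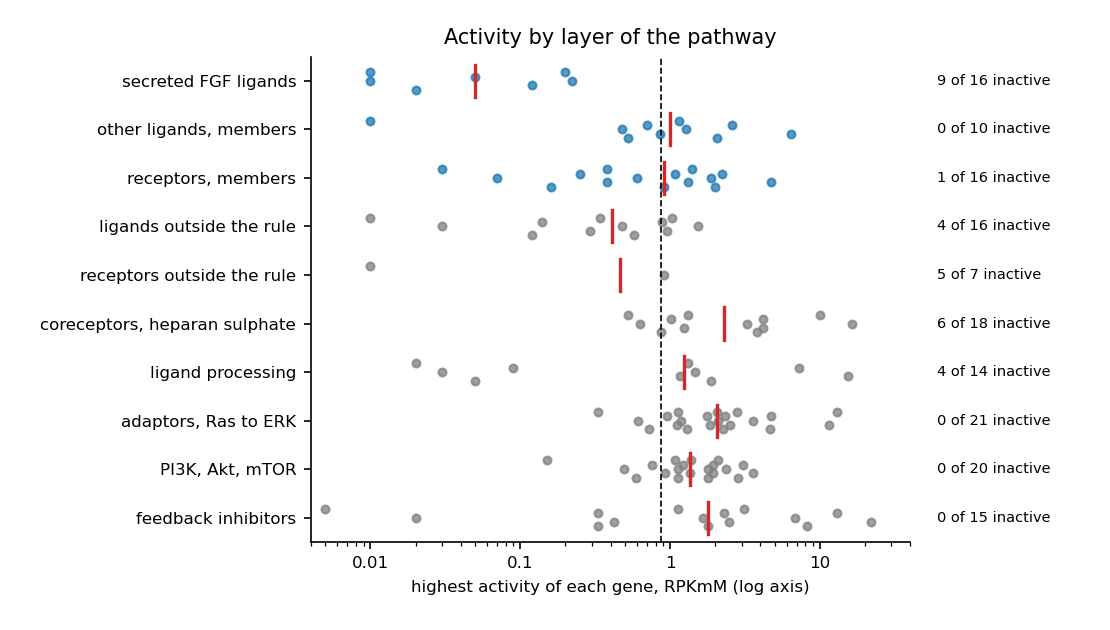
Highest activity in RPKmM (log axis) of each active gene in 10 classes of the pathways, growth factor genes of the set in blue and other genes in grey, with the number of inactive genes at the right. Red bars are medians over active genes, the dashed line is the median of all active entries, 0.87, and Grb10, listed at 0, is drawn at 0.005; secreted FGF ligands have the lowest median, 0.05.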

How the data were processed

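The authors made GRO-seq libraries from C2C12 myoblasts in 2 replicates, without treatment. The submitters' processing notes name CASAVA 1.8, and the reads were mapped to mm9 with Bowtie2. The authors trimmed and remapped failed reads, kept unique reads, discarded reads at rRNA and tRNA repeats and pooled the libraries. They deposited gene activity in RPKmM, an RPKM over mappable bases of the sense strand of the gene body, rounded to 2 decimals, or a word for inactive entries. Pooling hides the spread between libraries, repeats can leave part of a gene uncounted, and the depth per sample is not in the table.

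Values were used as deposited, and no test or p-value was computed. The bounds that rounding allows were computed for ratios between genes and are given where they are wide or decide a comparison. Shares are given without an interval; a 95% Wilson interval, of counting error only, served to judge how far the shares of active entries moved under alternatives. The members and lists were chosen with earlier results of these data known. The genes named are every member, the 3 most active and all inactive genes of each pathway list, and neighbours of members; Igf2, Grb10, Grb14, the genes preceding a member on its strand and the ends of the marker range are named outside this rule, with their values known.

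Positions, lengths and the sequence 1 kb either side of starts came from mm9 (NCBIM37) with GENCODE vM1, matched by symbol. Positions were kept for 18924 symbols (94.0%) and 56 of 57 members, with Fgfr2 left out for the span of its model. The longest coding transcript was used. Promoters came from RefSeq (GRCm38.p6), matched for 44 members. The choice of members, the counts, medians and geometric means were tested on simulated data. Python 3.11.15, numpy 2.4.6, scipy 1.17.1, matplotlib 3.10.9, pysam 0.24.0 and samtools 1.23.1 were used. Alternatives were a single entry per symbol, limits of 0.01 and 0.1, geometric means with a pseudocount of 0.01 or 0.001, inactive entries as 0, a smaller set of genes, gene span for length and another window for CpG.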

Additional observations from a re-analysis of the deposited data

How the results depend on the processing

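The share of active receptor entries stayed within its 95% Wilson interval under each alternative, but fell from 94.7% to 78.9% with active entries of at least 0.1. The ratio of the members' median to that of all other active entries was 0.598 and stayed below 1 and within 1.5-fold. It was higher under each alternative, with 0.806 for inactive entries as 0 and 0.882 for active entries of at least 0.1, where little of the gap was left. The most active gene of each role stayed the same under each alternative run for it, and the ratio of lengths was unchanged with gene span. For CpG content the planned setting, RefSeq promoters, gave a ratio of active to inactive medians of 1.05 but was void, so its alternative, the 1 kb window with 1.02, is reported in its place and its stability was not assessed. The ratio of the receptors' to the ligands' median was 1.17 and is the least stable value. It was 1.90 with a single entry per gene, whether the most or the least active, 1.79 as geometric means at a pseudocount of 0.01, 2.00 at 0.001, and 6.71 with inactive entries as 0, but reversed to 0.953 with active entries of at least 0.1. That limit also lowered the share of active entries from 78.1% to 58.9% over all members and from 71.9% to 50% for ligands, and raised the members' median from 0.52 to 1.05 RPKmM, since it removes entries from the low end. With inactive entries as 0 that median was 0.25. The ratio of lengths was 4.19 with Fgfr2 included, an alternative chosen after seeing the data. No paired analysis was possible because there is a single group and its libraries were pooled, and for the same reason neither library could be left out. Values near 0.01 are coarse because of rounding, and the number of reads behind an entry is not listed.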
